A study of Homo sapiens with 8 samples.

Results

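The nuclear-encoded subunits of the mitochondrial respiratory chain and of ATP synthase were followed in BT-549, an established triple negative breast cancer (TNBC) cell line. Members were taken by symbol: NDUF followed by A, B, C, S or V and a number, SDHA to SDHD, CYC1 and CYCS. Every symbol that starts with UQCR or ATP5 was added, and COX4 to COX8 followed by A, B or C. The rule so written does not reach COX4I1 and COX4I2. This rule found 87 of the 23228 genes listed. Of these, 80 are standard subunits and 7 share the name only, being retrocopies, readthrough genes and proteins such as COX7A2L that are not integral subunits. The standard subunits were 36 of complex I, 4 of complex II, 9 of complex III, 15 of complex IV, 15 of complex V and cytochrome c itself, with NDUFA4 counted in complex IV. The rule did not use any measured value.

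Gene expression was measured by RNA-seq of total RNA in 8 libraries that form 4 groups of 2. The groups were given vehicle (DMSO), 100 nM EC359, an inhibitor of the leukemia inhibitory factor receptor (LIFR), 10 µM vorinostat (SAHA), a histone deacetylase inhibitor (HDACi), or both drugs together at these doses, and RNA was taken after 24 h. The study asked what the addition of EC359 to HDACi does to the transcriptome. All libraries came from 1 cell line. The labels do not say whether the 2 libraries of a group came from separate cultures, so p-values measure the spread between these libraries, which may be technical.

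The respiratory chain passes electrons from NADH and succinate through complexes I to IV to oxygen and pumps protons across the inner mitochondrial membrane, and complex V, the ATP synthase, uses the resulting gradient to make ATP. A small set of subunits is made inside the mitochondrion, while the nuclear genome encodes the rest, along with the assembly factors that put each complex together. Transcription factors known for binding at promoters of these nuclear genes include NRF1, the ETS factor GABP and YY1, and coactivators of the PGC-1 family act through them.

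The values are read counts per gene. Between 19069450 and 24759041 counts per library fell on genes, and 13694 genes passed a filter on low counts and were tested, among them 80 of the 87 members. Levels are given as CPM, a count scaled to library size after TMM normalization, so each is a share of its library, and fewer cells carrying a transcript cannot be told apart from less of it per cell. Differences are log2 fold changes with their standard error (SE), and a gene passed at an adjusted p under 0.01. For p-values edgeR's quasi-likelihood test was used, adjusted over all 13694 genes after Benjamini and Hochberg. VIM, a mesenchymal marker, stood at 2056 to 9442 CPM, the receptor genes ESR1 and PGR at no more than 1.02 CPM, ERBB2 at 12.03 to 102 CPM, and PTPRC, CD3E and PECAM1, markers of leukocytes and endothelium, at no more than 0.708 CPM. The 2 libraries of a group differed over genes with an SD of 0.563 (log2) in EC359 and 0.312 to 0.448 in the other groups.

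The promoters of 67 of the 87 members are in the RefSeq table (build GRCh38.p14). It gives 250 bases before to 50 bases after each start site, and 3 short motifs of 8 bases were searched on both strands in these 300 bases. GCATGCGC, the core of the NRF1 site, was found in 14 of the 67 member promoters (20.9%) and in 3.05% of all 35116 promoters in the table. CCGGAAGT, an ETS and GABP site, was found in 9 (13.4%, against 4.14% of all), and AAGATGGC, a YY1 site, in 11 (16.4%, against 2.89%). At least 1 of the motifs was present in 28 members (41.8%, against 9.36% of all). For each member 1 promoter was searched, the first listed for its symbol. The share of all counts every entry, whatever the gene's expression here, so the shares come from unlike sets. The windows below belong to the subunit with the lowest log2 fold change under vorinostat (NDUFS6), to a pair of genes for the c subunit of ATP synthase (ATP5G1 and ATP5G2), and to 3 subunits of complex IV of which COX6A1 and COX6B2 rose and COX6B1 did not pass. Each runs 5′ to 3′ along the gene from 250 bases before the start to 30 bases after it, and capitals mark a match to one of the motifs, on either strand.

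NDUFS6 at chr5:1801157-1801436 (plus strand): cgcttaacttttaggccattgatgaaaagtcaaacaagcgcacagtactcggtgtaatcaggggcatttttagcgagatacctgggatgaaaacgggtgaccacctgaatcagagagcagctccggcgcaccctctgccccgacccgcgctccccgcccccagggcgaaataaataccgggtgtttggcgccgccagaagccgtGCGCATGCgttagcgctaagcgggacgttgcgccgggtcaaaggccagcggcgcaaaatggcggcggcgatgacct
ATP5G2, now ATP5MC2, at chr12:53676054-53676333 (minus strand): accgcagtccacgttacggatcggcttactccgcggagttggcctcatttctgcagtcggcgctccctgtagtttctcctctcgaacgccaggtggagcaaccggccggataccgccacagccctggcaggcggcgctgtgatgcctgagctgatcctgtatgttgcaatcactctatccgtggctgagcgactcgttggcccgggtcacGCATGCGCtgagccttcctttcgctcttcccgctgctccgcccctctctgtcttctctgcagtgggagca
ATP5G1, now ATP5MC1, at chr17:48892537-48892816 (plus strand): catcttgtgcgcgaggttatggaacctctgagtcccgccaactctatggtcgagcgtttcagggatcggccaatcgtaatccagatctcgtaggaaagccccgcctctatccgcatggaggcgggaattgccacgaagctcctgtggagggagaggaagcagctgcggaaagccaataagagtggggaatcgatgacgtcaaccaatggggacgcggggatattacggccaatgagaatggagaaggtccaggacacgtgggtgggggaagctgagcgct
COX6A1 at chr12:120437863-120438142 (plus strand): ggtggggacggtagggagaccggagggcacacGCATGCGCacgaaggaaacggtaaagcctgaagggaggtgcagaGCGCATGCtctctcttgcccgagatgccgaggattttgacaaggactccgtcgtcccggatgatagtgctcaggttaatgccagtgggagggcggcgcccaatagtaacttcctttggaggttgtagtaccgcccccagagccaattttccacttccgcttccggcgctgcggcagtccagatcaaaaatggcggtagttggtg
COX6B1 at chr19:35648073-35648352 (plus strand): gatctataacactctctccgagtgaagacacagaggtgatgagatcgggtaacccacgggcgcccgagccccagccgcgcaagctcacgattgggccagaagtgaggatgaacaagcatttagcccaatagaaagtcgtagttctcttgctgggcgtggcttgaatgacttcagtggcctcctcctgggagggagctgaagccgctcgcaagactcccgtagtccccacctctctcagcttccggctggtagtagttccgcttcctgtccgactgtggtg
COX6B2 at chr19:55354690-55354969 (minus strand): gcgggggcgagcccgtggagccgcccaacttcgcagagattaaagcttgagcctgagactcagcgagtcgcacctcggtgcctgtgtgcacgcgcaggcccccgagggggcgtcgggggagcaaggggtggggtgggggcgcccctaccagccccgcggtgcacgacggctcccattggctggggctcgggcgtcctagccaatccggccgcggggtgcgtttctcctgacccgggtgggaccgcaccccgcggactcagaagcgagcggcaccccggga

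The NRF1 core was present in the windows of NDUFS6 and ATP5G2, which fell, and on both strands in that of COX6A1, which rose. No motif was found in the windows of ATP5G1, COX6B1 and COX6B2. Over the tested members, the median log2 fold change in vorinostat against vehicle was 0.14 for the 28 with a motif and 0.04 for the 35 without one, and in the combination against vehicle -0.47 and -0.54. A match is only a stretch of letters and was not tested as a binding site.

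In vehicle-treated cells all 5 complexes were expressed. Per kilobase of transcript, the median level was 81.8 CPM for complex I, 85.4 for complex II, 141 for complex III, 110 for complex IV and 135 for complex V. ATP5B, the catalytic β subunit of ATP synthase, was highest at 596 ± 52.9 CPM per kilobase (SD, n = 2). COX8A, a small subunit of complex IV, followed at 309 ± 24.4, and CYC1, the cytochrome c1 of complex III, stood at 274 ± 16.4. The 7 members that were not tested were the tissue-restricted complex IV isoforms COX6A2, COX7A1, COX7B2 and COX8C, the readthrough gene ATP5J2-PTCD1, ATP5L2 and ATP5E. COX6A2, COX7A1, COX7B2 and ATP5J2-PTCD1 had 0 counts in all 8 libraries, ATP5L2 had 1 count in a single library, and COX8C, a testis isoform, had at most 10. ATP5E, the ε subunit of ATP synthase, had 0 to 5 counts in a library while its retrocopy ATP5EP2 had 382 to 851. Reads that align to more than 1 place are not counted, so the levels of such pairs are uncertain. The same holds for UQCRH and its retrocopy UQCRHL, which stood at 170 ± 26.8 and 127 ± 2.15 CPM per kilobase in vehicle.

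The combination libraries were lower than the vorinostat libraries in the median of every complex, without overlap. Relative to the vehicle mean, the median of the 36 complex I subunits was -0.12 and -0.14 (log2) in the vorinostat libraries and -0.60 and -0.70 in the combination libraries. Complex II lay at 0.27 and 0.33 with vorinostat and at -0.06 and -0.22 with both drugs. Complex II was thus the complex with the highest medians under vorinostat. For complex III the medians were -0.07 and -0.14 with vorinostat and -0.55 and -0.51 with both drugs. Complex IV gave 0.12 and 0.16, then -0.28 and -0.46, and complex V 0.05 and 0.04, then -0.35 and -0.70. Over all tested genes the library medians stayed between -0.03 and 0.06.

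**Figure D1:**
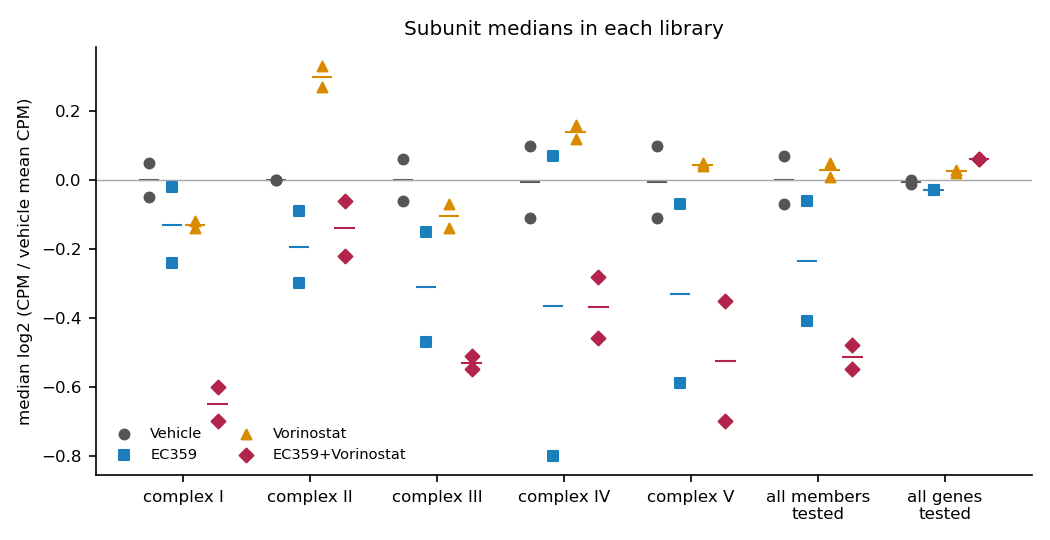
Median log2 ratio of CPM to the vehicle mean over the tested standard subunits of each complex, over all 80 tested members and over all 13694 tested genes, with 1 point per library and a short line at the mean of each group. The combination libraries lie under the vorinostat libraries in complexes I to V, and the EC359 libraries lie far apart in complexes IV and V.

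The EC359 libraries stood apart from each other. Over the tested members, the median relative to vehicle was -0.41 in EC359 replicate 1 and -0.06 in replicate 2. In complex IV these medians were -0.80 and 0.07, and in complex V -0.59 and -0.07. Replicate 1 was lower than replicate 2 in 61 of 79 members, with a median difference of -0.31, while over all genes 46.9% were lower and the median was 0.03. The most extreme member was NDUFB2, an accessory subunit of complex I, at 18.2 and 45.3 CPM. Vehicle showed a smaller shift of this kind, with replicate 1 lower in 65 of 80 members by a median of -0.14. Replicate 1 of EC359 was also the most deeply sequenced library, with 24759041 counts on genes against 19098230 in replicate 2, and the part of depth in this difference was not tested.

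EC359 alone moved no member past the threshold. In EC359 against vehicle 0 of 80 tested members passed in edgeR's quasi-likelihood test and 0 in DESeq2, where 3.81% of all tested genes passed as higher and 4.01% as lower in edgeR. At an unadjusted p under 0.05 there were 9 members, 1 higher and 8 lower, where 30.9% of all tested genes had such a p in either direction. The 8 include COX6B2, with 6 and 3 counts in vehicle and 0 and 0 with EC359. It passed the filter on low counts only through the libraries with vorinostat. The median log2 fold change of the members was -0.20, against -0.02 for all genes, and 64 of 80 lay below 0, where 52.1% of all genes did. Both EC359 libraries were lower than both vehicle libraries for 28 members, where 28.8% of all tested genes were. The lower median was seen mostly in EC359 replicate 1, at -0.41 relative to the vehicle mean, against -0.06 in replicate 2. Which EC359 library entered the fit changed the number that passed.

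By complex, the medians in EC359 against vehicle were -0.15, -0.19, -0.21, -0.31 and -0.32 for complexes I to V. ATP5O, which forms part of the peripheral stalk of ATP synthase (the OSCP subunit), gave -0.57 ± 0.27 (SE, adjusted p = 0.19 in edgeR's quasi-likelihood test), the lowest of complex V. It was measured at 146 and 151 CPM in vehicle and at 67.8 and 133 CPM with EC359, so that both EC359 libraries were below vehicle and replicate 1 was the lower by far. NDUFS7, the core subunit of complex I that carries the last iron-sulfur cluster before ubiquinone, fell short of the threshold as well, at -0.48 ± 0.20 (adjusted p = 0.15 in edgeR). UQCRB, a small subunit of complex III, went the other way in EC359 replicate 1, with 302 CPM against 198 and 152 CPM in vehicle and 134 CPM in replicate 2. Its difference was 0.33 ± 0.31 (adjusted p = 0.52 in edgeR). The highest of complex I and of complex V were NDUFA11 (0.13 ± 0.11) and ATP5J (0.20 ± 0.13), an accessory subunit of the membrane arm and the F6 subunit of the peripheral stalk.

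With vorinostat the subunits moved in both directions. In vorinostat against vehicle 26 of 80 tested members passed in edgeR, 12 higher and 14 lower, where 26.2% of all tested genes passed as higher and 25.9% as lower. The median log2 fold change was 0.02, against 0.03 for all genes. With the added criterion of an absolute log2 fold change over 1, as the study used, 6 members were left, 4 higher and 2 lower, against 30.1% of all genes. The 12 and the 4 include COX6B2, which passed the filter on low counts only through the libraries with vorinostat. The number that passed at the first threshold changed when a library was left out, also a library of EC359, which is not compared here.

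Of the 36 subunits of complex I 10 fell and 4 rose, and the median was -0.14. The share that fell was near the 25.9% of all tested genes, and the share that rose was below the 26.2%. NDUFS6, an accessory subunit of the matrix arm that binds zinc, was measured at 62.2 and 63.9 CPM in vehicle, 64.1 and 57.8 with EC359, 27.9 and 25.4 with vorinostat, and 18.1 and 18.9 with both drugs. Every library with vorinostat was lower than every library without it, and the combination libraries were the lowest. The log2 fold changes were -1.24 ± 0.11 with vorinostat and -1.77 ± 0.11 with both drugs (adjusted p = 1.1e-05 and 1.2e-06, edgeR). NDUFA6 and NDUFA9, accessory subunits of the matrix arm and of its junction with the membrane, fell by 0.96 and 0.89 on the log2 scale under vorinostat (SE 0.10 and 0.16).

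The 7 nuclear-encoded core subunits of complex I, which carry the flavin and the iron-sulfur clusters, did not move together. NDUFS1 and NDUFS8 fell, and NDUFV1, the subunit that binds NADH and flavin, rose by 0.53 ± 0.11. NDUFS1, the largest core subunit, which carries several of the clusters, stood at 114 and 118 CPM in vehicle, 98.7 and 100.0 with EC359, 77.1 and 82.2 with vorinostat, and 63.4 and 53.6 with both drugs. These libraries fell in 4 separate levels, with EC359 just under vehicle and the combination lowest. The log2 fold change with vorinostat was -0.54 ± 0.10 (adjusted p = 0.0014, edgeR).

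Among the complex I subunits that rose, NDUFB3, an accessory subunit of the membrane arm, gave 24.2 and 24.6 CPM in vehicle, 25.5 and 25.2 with EC359, 57.4 and 56.2 with vorinostat, and 38.7 and 38.5 with both drugs. NDUFA2, an accessory subunit of the matrix arm, gave 26.8 and 37.7, then 13.9 and 34.2, then 75.7 and 79.4, and then 51.7 and 39.1 CPM. Their log2 fold changes with vorinostat were 1.22 ± 0.10 and 1.27 ± 0.34 (adjusted p = 7.7e-06 and 0.0097, edgeR). The libraries of NDUFB3 lay close together within each group, whereas those of NDUFA2 were spread, most of all with EC359, and for both genes the vorinostat libraries were the highest. In GENCODE on GRCh37, exons of NDUFA2 overlap TMCO6 and exons of NDUFB3 overlap FAM126B, both on the opposite strand. Whether strand was used in counting is not given in the sources used here.

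In complex II, SDHA, the flavoprotein that oxidises succinate (GRCh37, chromosome 5, 218418 to 257197), rose from 190 and 179 CPM in vehicle to 305 and 294 CPM with vorinostat. EC359 libraries stood at 164 and 166 CPM and combination libraries at 205 and 218 CPM. The vorinostat difference was 0.70 ± 0.08 (adjusted p = 8.3e-05, edgeR), and the groups did not overlap. SDHB, the iron-sulfur subunit, and the membrane anchors SDHC and SDHD gave 0.20, 0.41 and -0.24 and did not pass.

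In complex III 2 of 9 subunits fell and 1 rose with vorinostat, beside 25.9% and 26.2% of all tested genes. The pair that fell carries redox centres on the path to cytochrome c. UQCRFS1, the Rieske iron-sulfur protein (GRCh37, chromosome 19, 29696227 to 29704058), was measured at 128 and 129 CPM in vehicle, 114 and 108 with EC359, 77.1 and 70.2 with vorinostat, and 53.3 and 47.0 with both drugs. CYC1 was measured at 313 and 341, 224 and 300, 187 and 177, and 142 and 144 CPM in the same order. The vorinostat libraries were below all libraries without vorinostat for both genes, with log2 fold changes of -0.80 ± 0.10 and -0.84 ± 0.13. Of the 7 other subunits, 1 passed: UQCRH, the acidic hinge protein that docks cytochrome c, rose by 0.47 ± 0.11 (adjusted p = 0.0055, edgeR). UQCRB and the core protein UQCRC2 gave -0.65 ± 0.31 and -0.30 ± 0.11 (adjusted p = 0.095 and 0.035). Cytochrome c itself, the soluble electron carrier encoded by CYCS, also rose. It stood at 204 and 249 CPM in vehicle, 212 and 266 with EC359, 384 and 392 with vorinostat, and 363 and 317 with both drugs, and the vorinostat difference was 0.78 ± 0.14.

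In complex IV no subunit fell with vorinostat, and 3 of the 11 tested rose, where 25.9% of all tested genes fell and 26.2% rose. The 3 include COX6B2, which passed the filter on low counts only through the libraries with vorinostat. COX6A1, the ubiquitous isoform of subunit 6A, gave 43.1 and 50.8 CPM in vehicle, 27.1 and 49.2 with EC359, 99.5 and 102 with vorinostat, and 100.1 and 70.1 with both drugs. Its difference was 1.10 ± 0.26 (adjusted p = 0.0044, edgeR), and all 4 libraries with vorinostat exceeded all 4 without it. COX6C, another small subunit, rose by 0.57 ± 0.08. COX7A2L, which is no standard subunit and helps to join complexes III and IV into supercomplexes, rose from 87.5 and 90.6 to 169 and 168 CPM, while COX7A2, its relative within complex IV, was not past the threshold at 0.27 ± 0.18.

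COX6B2, the testis isoform of subunit 6B, was the extreme member. It had 6 and 3 counts in the vehicle libraries, 0 and 0 with EC359, 337 and 378 with vorinostat, and 275 and 232 with both drugs. The level with vorinostat was 78.8 times that in vehicle, with a 95% counting interval of 41.3 to 173, and with both drugs 61.3 times (32 to 135). Against EC359, where no read was counted, the combination was at least 190-fold higher, taking a floor of 3 counts over the EC359 group. These intervals cover counting error only. COX6B1, the ubiquitous isoform, stood at 110 and 127 CPM in vehicle and 129 and 125 CPM with vorinostat, a difference of 0.09 ± 0.23. The level of COX6B2 with vorinostat, 17.3 and 16.1 CPM, was thus below that of COX6B1 in the same libraries.

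In complex V 1 of 14 tested subunits rose and 2 fell with vorinostat, beside 26.2% and 25.9% of all tested genes. Of the 4 tested subunits of the F1 head, 1 passed. ATP5D, the δ subunit of the central stalk, rose with vorinostat from 50.7 and 64.7 to 110 and 98.9 CPM, a change of 0.85 ± 0.18 (adjusted p = 0.0023, edgeR). ATP5B went from 983 and 1115 to 1553 and 1542 CPM, a difference of 0.56 ± 0.16 that missed the threshold (adjusted p = 0.013, edgeR). ATP5A1, the α subunit, and ATP5C1, the γ subunit of the central stalk, gave 0.10 ± 0.21 and -0.08 ± 0.11 and did not pass. ATP5G1, ATP5G2 and ATP5G3 encode the same mature c subunit. ATP5G2 was measured at 103 and 118 CPM in vehicle, 73.7 and 101.4 with EC359, 54.4 and 54.3 with vorinostat, and 35.9 and 34.5 with both drugs. It fell in vorinostat by 1.02 on the log2 scale (SE 0.15, adjusted p = 0.00026, edgeR), whereas ATP5G1 and ATP5G3 gave -0.48 ± 0.29 and -0.01 ± 0.23 and did not pass. ATP5J2, the f subunit of the membrane part, also fell, by 0.47 (SE 0.09).

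**Figure D2:**
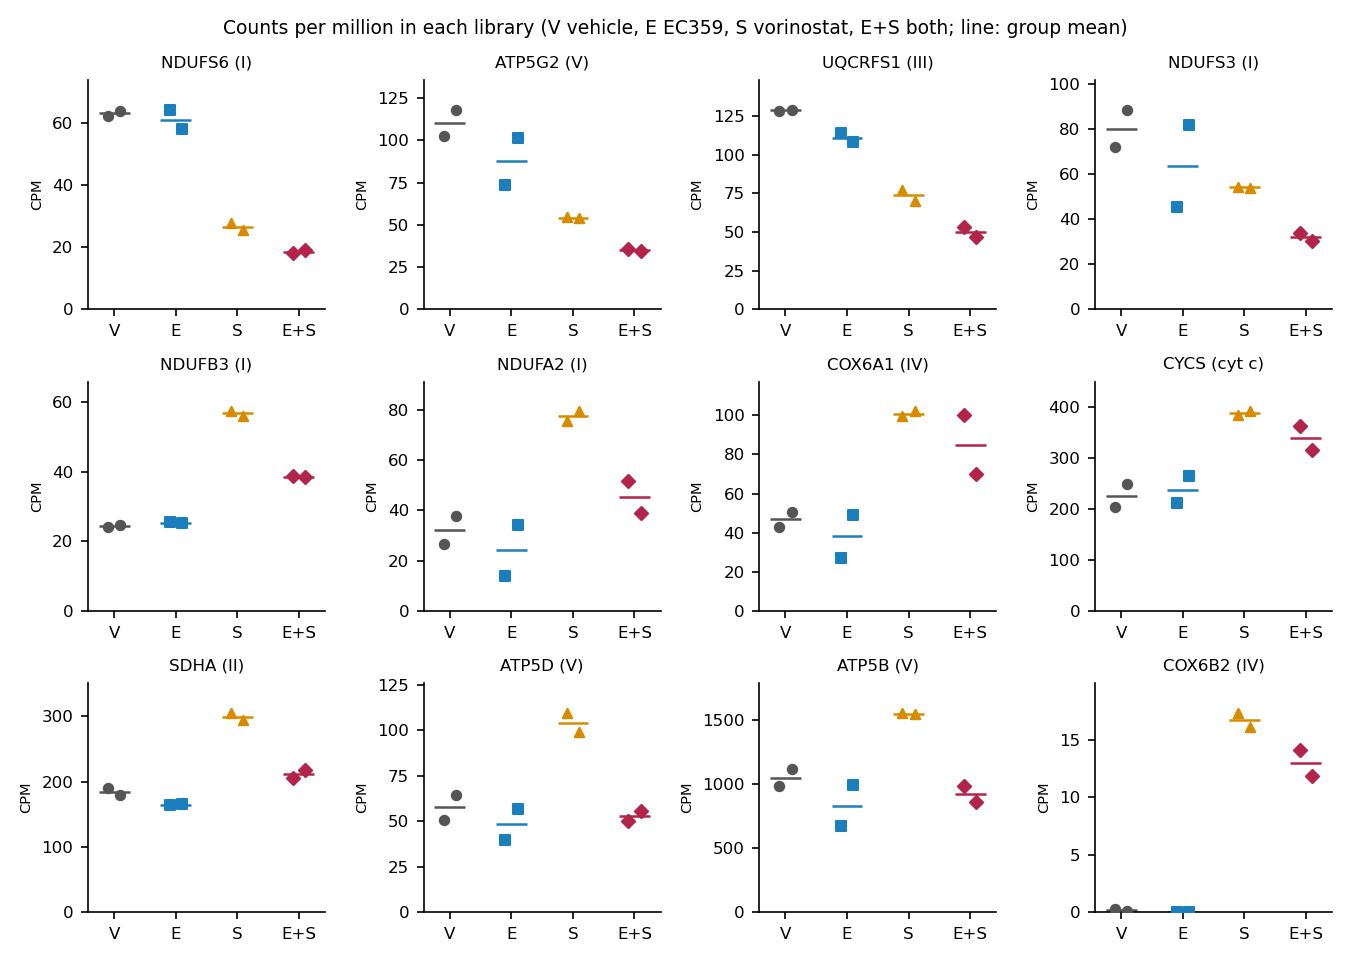
CPM of 12 members in each library, by group, with a line at the group mean and an axis that starts at 0. NDUFS6, ATP5G2, UQCRFS1 and NDUFS3 are lowest with both drugs, SDHA, ATP5D and ATP5B are highest with vorinostat alone, and COX6B2 is near 0 without vorinostat.

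The combination lowered more subunits. In the combination against vehicle 37 members passed in edgeR's quasi-likelihood test, 5 higher and 32 lower, where 29.7% of all tested genes passed as higher and 26.7% as lower. The median log2 fold change was -0.50, against 0.07 for all genes, and 61 of 80 members lay below 0, where 47.7% of all genes did. With the added fold criterion 18 members were left, 1 higher and 17 lower, against 34.8% of all genes. The 1 higher was COX6B2, which passed the filter on low counts only through the libraries with vorinostat. Here too the number that passed changed when a library was left out of the fit.

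In complex I 19 of 36 subunits fell, beside 26.7% of all tested genes, and NDUFB3 was the 1 that rose. Of its 7 core subunits 5 fell, with a median of -0.83. NDUFS3, a core subunit of the matrix arm, was measured at 71.8 and 88.4 CPM in vehicle, 45.3 and 81.6 with EC359, 54.2 and 53.9 with vorinostat, and 33.7 and 30.5 with both drugs. Its combination libraries were the lowest, and the change against vehicle was -1.32 ± 0.24. Accessory subunits that fell by more than 1 on the log2 scale were NDUFS6, NDUFB2, NDUFA1, NDUFA9, NDUFB4, NDUFS5, NDUFB5 and NDUFA6, between -1.77 and -1.03. NDUFA1, a small subunit of the membrane arm, gave 63.6 and 82.6 CPM in vehicle, 43.5 and 75.8 with EC359, 57.0 and 50.8 with vorinostat, and 32.8 and 25.5 with both drugs. NDUFS5, which faces the intermembrane space, gave 114 and 128, 114 and 132, 72.9 and 73.4, and 57.5 and 45.6 CPM. The EC359 libraries of NDUFS5 overlapped those of vehicle, and both groups with vorinostat were lower. In complex II no subunit passed. In complex III 4 of 9 fell, UQCRFS1 by 1.36, CYC1 by 1.19, the core protein UQCRC2 by 0.71 and the small subunit UQCR10 by 0.53. No subunit of complex IV was lower at the threshold, and COX6B2 and COX6C rose. At an adjusted p under 0.05, 5 of 11 were lower, where 4480 of all 13694 tested genes were.

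In complex V 6 of 14 subunits fell in the combination against vehicle, beside 26.7% of all tested genes. Of the c subunit genes, ATP5G2 fell by 1.65 (SE 0.15) and ATP5G1 by 1.28 (SE 0.30), while ATP5G3 gave -0.79 ± 0.23 and an adjusted p of 0.013 in edgeR. ATP5I and ATP5J2, the e and f subunits of the membrane part, fell by 1.40 and 1.09. ATP5I stood at 28.5 and 38.4 CPM in vehicle, 20.8 and 30.1 with EC359, 24.3 and 25.0 with vorinostat, and 14.6 and 10.8 with both drugs, so that only the combination libraries were apart from all others. Exons of ATP5I overlap those of MYL5. ATP5F1, subunit b of the peripheral stalk, fell by 0.91, and ATP5C1, a member of the F1 head, by 0.46. The other F1 members ATP5B and ATP5A1 gave -0.19 ± 0.16 and -0.40 ± 0.21 and did not pass.

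**Figure D3:**
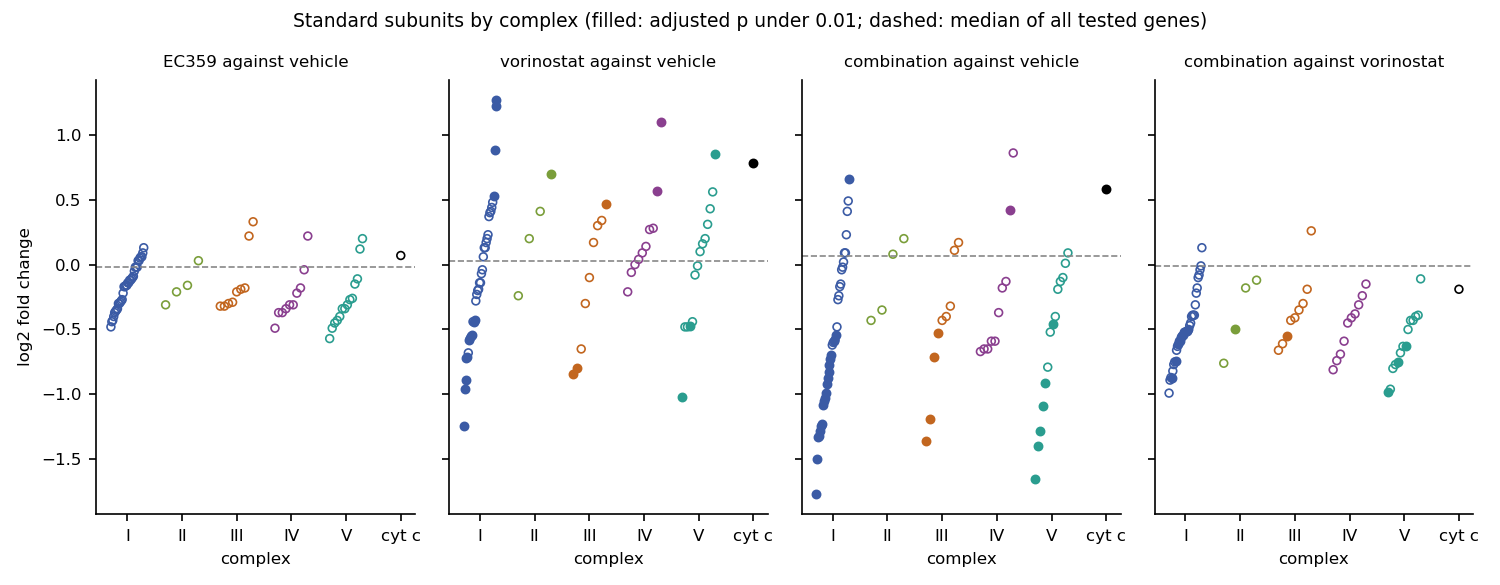
Log2 fold change of each tested standard subunit by complex in 4 comparisons, sorted within a complex, with filled points at an adjusted p under 0.01 and a dashed line at the median of all tested genes. COX6B2 is left out because its counts without vorinostat are near 0. The points of complexes I, III and V reach lowest in the combination against vehicle, and nearly all points lie below 0 in the combination against vorinostat.

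With EC359 added to vorinostat, the members that passed were all lower. In the combination against vorinostat 15 members passed in edgeR's quasi-likelihood test, all lower, where 8.45% of all tested genes passed as higher and 5.26% as lower. The median log2 fold change was -0.50, against -0.01 for all genes, and 78 of 80 members lay below 0, where 50.7% of all genes did. Both combination libraries were lower than both vorinostat libraries for 75 of 80 members, where 36.7% of all tested genes were. No member passed the added fold criterion, which 462 of all 13694 tested genes passed as higher and 120 as lower. The number that passed changed with the libraries in the fit. This held also for vehicle and EC359 libraries, which are not compared here but share the estimate of the spread. Member medians relative to the vehicle mean were 0.05 and 0.01 in the vorinostat libraries, and -0.48 and -0.55 with both drugs. The combination libraries also had the highest shares of reads outside annotated genes (13.6% and 14.2%, against 12.3% and 12.6% with vorinostat), the lowest shares of ambiguous reads (0.649% and 0.652%, against 0.718% and 0.711%) and the lowest TMM factors (0.955 and 0.965, against 1.02 in both vorinostat libraries), and their part in the result was not tested. With offsets for GC content and transcript length the member median was -0.47, against -0.04 for all genes.

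The 15 members were spread over 4 complexes. Complex I held 8, complex II 1, complex III 1 and complex V 3, and the others were ATP5S and the retrocopy ATP5EP2. NDUFV2, a core subunit that carries an iron-sulfur cluster, was measured at 32.1 and 31.6 CPM in vehicle, 31.3 and 35.1 with EC359, 36.7 and 35.0 with vorinostat, and 22.01 and 17.3 with both drugs. Only the combination libraries stood apart, with a change against vorinostat of -0.87 ± 0.14 (adjusted p = 0.0023, edgeR). NDUFA10 and NDUFB7, accessory subunits of the membrane arm, fell by 0.59 and 0.74 (SE 0.10 and 0.11).

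Of the members that rose with vorinostat, ATP5D, SDHA and NDUFB3 passed as lower with both drugs than with vorinostat alone. ATP5D stood at 110 and 98.9 CPM with vorinostat and at 50.2 and 55.6 CPM with both drugs, a change of -0.98 ± 0.18 (adjusted p = 0.0042, edgeR). ATP5B, whose vorinostat difference had not passed, stood at 1553 and 1542 against 981 and 858 CPM (-0.75 ± 0.16), and SDHA and NDUFB3 fell by 0.50 and 0.56. Both combination libraries of ATP5B lay under the vehicle libraries, those of ATP5D overlapped them, and those of NDUFB3 and SDHA stayed above them. CYCS (-0.19 ± 0.14), COX6A1 (-0.24 ± 0.25) and COX7A2L (-0.09 ± 0.08) did not pass, and their combination libraries stayed above the vehicle libraries. For CYCS and COX7A2L both combination libraries were below the vorinostat libraries, while those of COX6A1 overlapped them. NDUFA2 (-0.77 ± 0.34) and NDUFV1 (-0.51 ± 0.11), which had also risen with vorinostat, did not pass either. The lowest value belonged to NDUFB6, a membrane arm subunit of complex I, at -0.99 ± 0.31 (adjusted p = 0.041, edgeR). Outside the 15, SDHC, a membrane anchor of complex II, stood at 41.3 and 44.1 CPM with vorinostat and at 27.4 and 23.0 with both drugs (-0.76 ± 0.19, adjusted p = 0.016, edgeR). COX5B, a zinc-binding subunit of complex IV, stood at 78.3 and 80.5 against 48.9 and 41.7 CPM (-0.81 ± 0.25, adjusted p = 0.039). UQCRQ, a small subunit of complex III, gave -0.66 ± 0.20 (adjusted p = 0.035). In each of them the combination libraries were lower than the vorinostat libraries, without overlap. ATP5L, the g subunit of ATP synthase, moved least in complex V, from 140 and 137 to 127 and 128 CPM (-0.11 ± 0.10). Only UQCRB (0.26 ± 0.31) and NDUFB9 (0.13), an accessory subunit of complex I, lay above 0.

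The difference made by EC359 can be set side by side without and with vorinostat, in comparisons that share no library. Of 80 members 63 lay below 0 in both, a count nearly fixed by the 64 and 78 that lay below 0 in each. Across members Spearman's rho was 0.46, a description over genes that come from the same libraries. It has no value over all tested genes beside it. The interaction term, which tests whether the EC359 difference changed with vorinostat, was passed by 0 of 80 members in edgeR's quasi-likelihood test and by 2 in DESeq2, where 1.62% of all tested genes passed as higher and 0.482% as lower in edgeR. At an unadjusted p under 0.05 there were 22 members, 1 higher and 21 lower, against 22.4% of all tested genes. The 1 higher was COX6B2, which had 0 counts in both EC359 libraries. The median over members was -0.28, against 0.02 for all genes. The lowest adjusted p belonged to NDUFV2 (-0.93 ± 0.19, adjusted p = 0.025, edgeR), NDUFB3 (-0.61 ± 0.14, adjusted p = 0.035) and NDUFA10 (-0.57 ± 0.14, adjusted p = 0.048). Leaving out an EC359 library changed the number of members that passed the interaction.

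**Figure D4:**
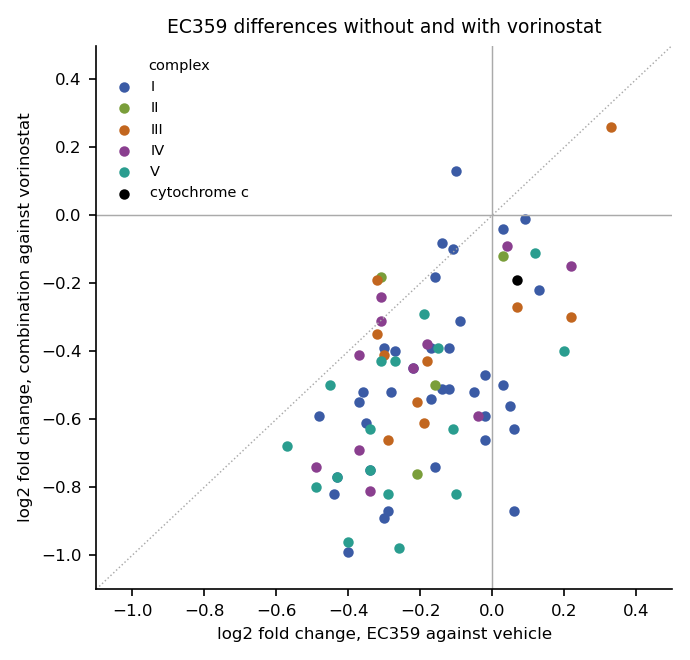
Log2 fold change of each tested member other than COX6B2 in EC359 against vehicle (horizontal) and in the combination against vorinostat (vertical), coloured by complex, with a dotted line where both are equal. Most points lie at the lower left and below the dotted line.

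Adding vorinostat to EC359 gave 31 members past the threshold in edgeR's quasi-likelihood test, 7 higher and 24 lower, where 29.5% of all tested genes were higher and 26.3% lower. The members' median was -0.25, against 0.06 for all genes. Of the 24, 16 belonged to complex I and 3 each to complexes III and V, and no subunit of complexes II and IV was lower at the threshold. With the added fold criterion 7 were left, 2 higher and 5 lower, against 33.7% of all genes. The 2 higher include COX6B2, which had 0 counts in both EC359 libraries. Leaving out a combination library lowered the number that passed.

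Of subunits that the name rule does not reach, 4 were looked up, and this list may not be complete. COX4I1, the largest nuclear-encoded subunit of complex IV, stood at 355 and 358 CPM in vehicle and at 270 and 273 CPM with both drugs, and fell by 0.39 (adjusted p = 0.002 in edgeR). NDUFAB1, the mitochondrial acyl carrier protein within complex I, gave -0.58 (adjusted p = 0.02), NDUFA4L2 stayed under 1 CPM and COX4I2 had no reads. ATPIF1, the inhibitor protein of ATP synthase, stood at 110 and 97.3 CPM in vehicle and 135 and 136 CPM with vorinostat, and did not pass (0.38, adjusted p = 0.055, edgeR).

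Of the listed regulators of these genes 13 were tested, and 7 fell and 1 rose in vorinostat against vehicle, where 25.9% of all tested genes fell and 26.2% rose. The level of NRF1, the factor whose core motif was searched, went from 27.0 and 27.7 CPM in vehicle to 16.2 and 15.4 with vorinostat (-0.80 ± 0.13). PPRC1, a coactivator of the PGC-1 family, fell by 1.78. The transcriptional coregulator HCFC1 gave -1.38 ± 0.14, and GABPB1, a subunit of GABP, gave -1.37 ± 0.16. GABPA, PPARGC1B and YY1 fell as well, by 0.61, 0.86 and 0.58. TFB1M, which methylates mitochondrial ribosomal RNA, rose by 0.87 ± 0.13. In the combination against vorinostat 0 of the 13 fell and 2 rose, beside 5.26% and 8.45% of all tested genes. Those that rose were PPRC1 (0.95) and TFB2M (0.78), a factor of mitochondrial transcription. GABPB2, ESRRA, TFAM, TFB2M and POLRMT did not pass with vorinostat, at -1.45, 0.74, 0.34, -0.35 and 0.31. PPARGC1A, the best known coactivator of the family, was not tested for its low counts, and GABPA shares exons on opposite strands with ATP5J.

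Of 46 tested assembly factors, 6 rose and 13 fell with vorinostat, so that the share that fell was near the 25.9% of all tested genes and the share that rose below the 26.2%. In the combination against vorinostat 2 of the 46 rose and 1 fell, beside 8.45% and 5.26% of all tested genes, with a median of -0.11 there. NDUFAF1, an early complex I assembly factor, rose from 16.9 and 17.3 CPM in vehicle to 40.8 and 38.9 with vorinostat (1.22 ± 0.11), and SURF1, which acts in complex IV assembly, from 14.8 and 19.1 to 46.9 and 48.0 (1.48 ± 0.21). LRPPRC, which stabilises mitochondrial mRNA, and NUBPL, an iron-sulfur carrier for complex I, rose by 0.76 and 0.51. COX10, which makes heme for complex IV, fell by 1.22 (SE 0.12), and C1orf31, now COA6, changed by -1.17. C8orf38 and C20orf7, now NDUFAF6 and NDUFAF5 and both acting on complex I, fell by 1.44 and 1.08. The complex II factor ACN9 rose by 0.58 ± 0.11. The complex III factors BCS1L and UQCC fell by 0.68 and 0.47 with vorinostat, and ATPAF1, an F1 assembly factor, by 0.52. COX15, which also acts in heme synthesis, was the assembly factor that EC359 alone changed, from 84.9 and 89.8 CPM to 48.0 and 48.0 CPM (-0.86 ± 0.11, adjusted p = 0.00092, edgeR).

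Members had short transcripts, with a median length of 672 bases against 2414 for all tested genes with an annotation, and a similar GC content (49.4% against 49.6%). Across the members, Spearman's rho of the log2 fold change in the combination against vorinostat was 0.28 with length and -0.18 with GC content, and over all tested genes 0.13 and -0.24. Exons of 17 members overlap those of another listed gene.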

How the data were processed

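Total RNA of 8 BT-549 samples, 2 per group, was made into TruSeq libraries and sequenced as 50 bp single-end reads. Per the methods and the submitters' processing notes, the authors aligned reads with TopHat2 2.0.8b to hg19 with the NCBI RefSeq annotation and counted them per gene with HTSeq. The HTSeq version, mode and strand setting are not given in the sources used here. The deposited values are raw counts per gene, not normalized. Of each file, 5 summary lines were left out. Reads without a feature made up 11.0% to 14.2% of a library and ambiguous reads 0.649% to 0.850%, and reads with several alignments are not counted.

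From these counts, R 4.3.3 with edgeR 4.0.16 (limma 3.58.1) fitted all 8 libraries with 1 mean per group, after edgeR's default filter on low counts and TMM scaling, and the quasi-likelihood test was adjusted by Benjamini-Hochberg over 13694 genes. The study's own criteria add an absolute log2 fold change over 1. Library depth, 19069450 to 24759041 gene counts, limits precision mainly for members with few counts. Intervals for low counts are exact and cover counting error only.

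Members were those of the symbol rule. The members and the lists of regulators, assembly factors and other pathways were chosen with earlier results of these data known. The grouping of subunits by role was made after the values were seen. Members named with their values were, in each complex, the lowest and highest in 3 comparisons (EC359 or vorinostat against vehicle, combination against vorinostat), those past the study's criteria in any comparison, and paralogue sets. Of other lists, the regulators, subunits outside the rule and, per list, up to 2 genes with the largest change each way under vorinostat were named. Others (NDUFV1, NDUFV2, NDUFS1, NDUFS8, NDUFA10, NDUFB7, UQCRC2, UQCR10, ATP5A1, ATP5B, ATP5C1, ATP5F1, COX15) were chosen after their values were seen. The values of 1 member are not reported here. Lengths, GC content and exon overlaps came from GENCODE on GRCh37 by symbol, which matched 21306 of 23228 symbols (91.7%) and all 87 members. Promoters came from RefSeq on GRCh38.p14. Scripts were tested on simulated data with known changes. Alternatives were DESeq2 1.42.0, total count scaling, other filters and thresholds, fits of the groups compared only, GC and length offsets, the replicate number as a block and each library left out. Figures were drawn with Python 3.11.15 and matplotlib 3.10.9.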

Additional observations from a re-analysis of the deposited data

How the results depend on the processing

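Counts of members past the threshold depended on which libraries entered, and no named call changed direction under any alternative run. Of 76 named calls, 50 to 75 were kept in the fits that leave out a library, in which a lone library is assumed to vary like the other groups, and 69 to 76 in the other refits. With each library left out in turn, the number of members past the threshold ran from 0 to 34 in EC359 against vehicle, 13 to 43 in vorinostat against vehicle, 24 to 56 in the combination against vehicle, 0 to 58 against vorinostat, 20 to 46 against EC359, and 0 to 17 for the interaction. In the same order of comparisons (EC359, vorinostat and combination, each against vehicle), the medians ran from -0.23 to -0.01, -0.17 to -0.12 and -0.75 to -0.57 for complex I, from -0.29 to -0.08, 0.20 to 0.40 and -0.27 to -0.04 for complex II, from -0.46 to -0.14, -0.20 to -0.02 and -0.60 to -0.44 for complex III, from -0.79 to 0.07, -0.02 to 0.32 and -0.51 to -0.33 for complex IV, and from -0.58 to -0.07, -0.08 to 0.16 and -0.75 to -0.40 for complex V. At an adjusted p under 0.05 the counts were 1 for EC359 against vehicle, 40 for the combination against vorinostat and 3 for the interaction, all lower. At this threshold 1105 of all tested genes were higher and 1178 lower in EC359 against vehicle. The combination against vorinostat had 2150 and 1743, and the interaction 642 and 283. The 1 member for EC359 against vehicle was COX6B2, with 6 and 3 counts in vehicle and 0 and 0 with EC359. It passed the filter on low counts only through the libraries with vorinostat. With only the 2 groups compared in the fit, at 0.01, 51 members passed in vorinostat against vehicle and 58 in the combination against vorinostat. For all refits, also those without a library, no share of all tested genes is given. Their counts thus do not set members apart from all genes. The study's criteria left 6, 18, 0 and 7 in vorinostat against vehicle and in the combination against vehicle, vorinostat and EC359. DESeq2 gave 38 for the combination against vorinostat and 2 for the interaction, and no filter on low counts gave 26 for the former. Correlations of same-numbered deviations ran from -0.173 to 0.231, the highest between vehicle and EC359. They do not settle whether the replicate numbers pair the samples. With the replicate block the counts were 0, 25, 39, 12, 30 and 0 in the order above. A block with the combination numbers crossed, chosen after seeing the data, gave 0, 30, 47, 32, 39 and 0. GC and length offsets gave 1 for the interaction and moved the medians under vorinostat and combination to -0.27 and -0.75 for complex I, 0.20 and -0.27 for complex II, and -0.27 and -0.64 for complex III, with the median of all genes shifted by -0.13. Total counts put the median of all genes in the combination against vorinostat at -0.10 and of members at -0.59. With complexes by symbol the complex III median under vorinostat was 0.04, and means in place of medians, which COX6B2 moves, gave -0.69, 0.77 and 0.30 for complex IV. Beyond the changes in the samples, genes or thresholds used, the cause was not tested. Depth limits members with few counts, such as COX6B2, COX8C and ATP5E.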

Other observations

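Genes of 2 other mitochondrial systems were measured beside the respiratory chain. Of 13 tested genes of the TCA cycle, which feeds NADH and succinate to complexes I and II, 4 rose and 2 fell in vorinostat against vehicle (edgeR's quasi-likelihood test), with a median log2 fold change of 0.27, where 26.2% of all tested genes rose and 25.9% fell. SUCLG2 and IDH3A, subunits of succinyl-CoA ligase and of the NAD-dependent isocitrate dehydrogenase, rose by 0.75 and 0.70, while IDH3B and IDH3G, the partners of IDH3A in the same enzyme, fell by 0.93 and 0.89. In the combination against vorinostat 4 of the 13 fell and 0 rose, where 8.45% of all tested genes rose and 5.26% fell. The median was -0.29, and 12 lay below 0, where 50.7% of all tested genes did.

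Of 76 tested proteins of the mitochondrial ribosome, which translates the subunits encoded in mitochondrial DNA, 5 rose and 30 fell with vorinostat, beside the same 26.2% and 25.9% of all tested genes, with a median of -0.36. MRPL9 and MRPL15 fell by 1.67 and 1.28, and MRPL55 and MRPL10 rose by 1.03 and 0.86. In the combination against vorinostat 2 rose and 3 fell (8.45% and 5.26% of all tested genes). The median was -0.14, and 51 of 76 lay below 0, where 50.7% of all tested genes did. Over all tested genes the medians in these comparisons were 0.03 and -0.01.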
